A study of Bos taurus with 2 samples.

Results

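Myosin heavy chains are the motor subunits of class II myosins, and 7 of them are described here in cultured bovine satellite cells: MYH1, MYH2, MYH3, MYH7, MYH8, MYH9 and MYH10. They were taken by gene symbol from the feature list, where each symbol belonged to 1 of the 21867 genes, and 16816 genes had at least 1 UMI. The cells were satellite cells from the longissimus muscle of 1 male Holstein calf aged 2 weeks, and were kept for 1 week in growth medium of DMEM with 10% fetal bovine serum. The 2 libraries, called replicates 1 and 2, were prepared from these same cells with the 10x Genomics 3′ kit, which tags each captured RNA molecule with a unique molecular identifier (UMI) near its 3′ end. There is no treated group, so the comparisons are between cell clusters, and the spread between the 2 libraries is that of library preparation, not of animals.

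A class II myosin joins a pair of heavy chains, which hold the motor, with smaller light chains. The muscle heavy chains assemble into the thick filaments of the sarcomere. MYH3 is the embryonic chain and MYH8 the perinatal chain, both typical of developing and regenerating fibers. MYH7 is the slow chain, which is also the beta chain of the heart, and MYH2 and MYH1 are the adult fast chains of type IIa and IIx fibers. MYH9 and MYH10 encode the heavy chains of non-muscle myosins IIA and IIB, which pull on the actin cytoskeleton in most cells and serve adhesion, migration and the contractile ring of dividing cells.

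The 15 clusters are those of the study, which named clusters 1 and 2 myoblasts, clusters 3 and 12 myocytes by MYOG (myogenin, a transcription factor of myoblast differentiation), clusters 4, 5 and 8 satellite cells, clusters 7 and 9 fibro-adipogenic progenitors, and left the others undefined. MYOG was at 18.1 and 19.2 UMIs per 10000 UMIs in cluster 12 (replicates 1 and 2) and at 6.61 and 6.76 in cluster 3, against 0.324 and 0.197 in cluster 9. Replicate 1 held 9939 cells with a median of 14626 UMIs, replicate 2 held 9157 cells with a median of 15206, and 27 barcodes occurred in both. Clusters 7, 13, 14 and 15 were shallow, with medians from 647 to 2513.5 UMIs per cell. Of the markers of other cell types, several that define a type were at or near 0 over all 19096 cells. Those of leukocytes had 1 UMI of PTPRC, 14 of CSF1R, 159 of LYZ and 580 of CD68, those of endothelium had 25 of KDR, 28 of CDH5, 45 of PECAM1 and 147 of TEK, and those of red blood cells had 0 of ALAS2, 1 of HBB and 180 of HBA. Of the Schwann cell markers, SOX10 had 0 UMIs and S100B 9004, and smooth muscle or pericyte markers had 8 of RGS5, 102 of MCAM, 192 of MYH11, 8484 of CNN1 and 190636 of ACTA2. The part of such cells in the results was not tested. Because the clusters were formed on these same counts, a p-value for a cluster measures the gap against the spread between libraries and is not independent evidence that the cluster differs.

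Of the 7 chains, 3 were abundant and 4 were rare. MYH9 (ENSBTAG00000010402) had 85512 UMIs in 16504 cells, MYH10 (ENSBTAG00000021151) had 65351 UMIs in 15402 cells, and MYH3 (ENSBTAG00000011803) had 29416 UMIs in 3747 cells. The others had 161 UMIs in 63 cells (MYH8, ENSBTAG00000009702), 115 UMIs in 45 cells (MYH2, ENSBTAG00000007090), 74 UMIs in 54 cells (MYH7, ENSBTAG00000009703) and 4 UMIs in 4 cells (MYH1). In RefSeq's annotation of a later assembly, ARS-UCD2.0, MYH1, MYH2 and MYH3 follow each other on chromosome 19, MYH8 lies between MYH13 and MYH4 on the same chromosome, MYH7 is next to MYH6 on chromosome 10, and MYH9 is on chromosome 5. The muscle chains are closely similar in sequence, and only uniquely mapped reads were counted, so the split of UMIs among MYH1, MYH2, MYH3, MYH4 and MYH8, and between MYH6 and MYH7, is uncertain.

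MYH3, the embryonic chain, was the member with the widest range of levels over clusters. In cluster 12 it was at 14.8 UMIs per 10000 UMIs in replicate 1 and 16.2 in replicate 2, and this cluster of 627 cells held 19255 of its UMIs (65.5%). Cluster 7 followed with 5.10 and 4.39, and cluster 3 with 1.25 and 1.29. The libraries of these 3 clusters did not overlap with each other or with those of any lower cluster. Below them, clusters 13, 15, 10, 14, 1 and 2 lay between 0.289 and 1.19, and within this stretch cluster 14, at 0.840 and 0.362, overlapped with 13, 15, 10 and 1, while 13 overlapped with 15 and 1 with 2. The lowest values were those of clusters 4, 8, 11 and 5, from 0.0479 to 0.0747, where 8, 11 and 5 could not be ordered. The 3 satellite cell clusters were thus all at the low end of the order for MYH3, and the myoblast clusters 1 and 2 in its middle.

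**Figure D1:**
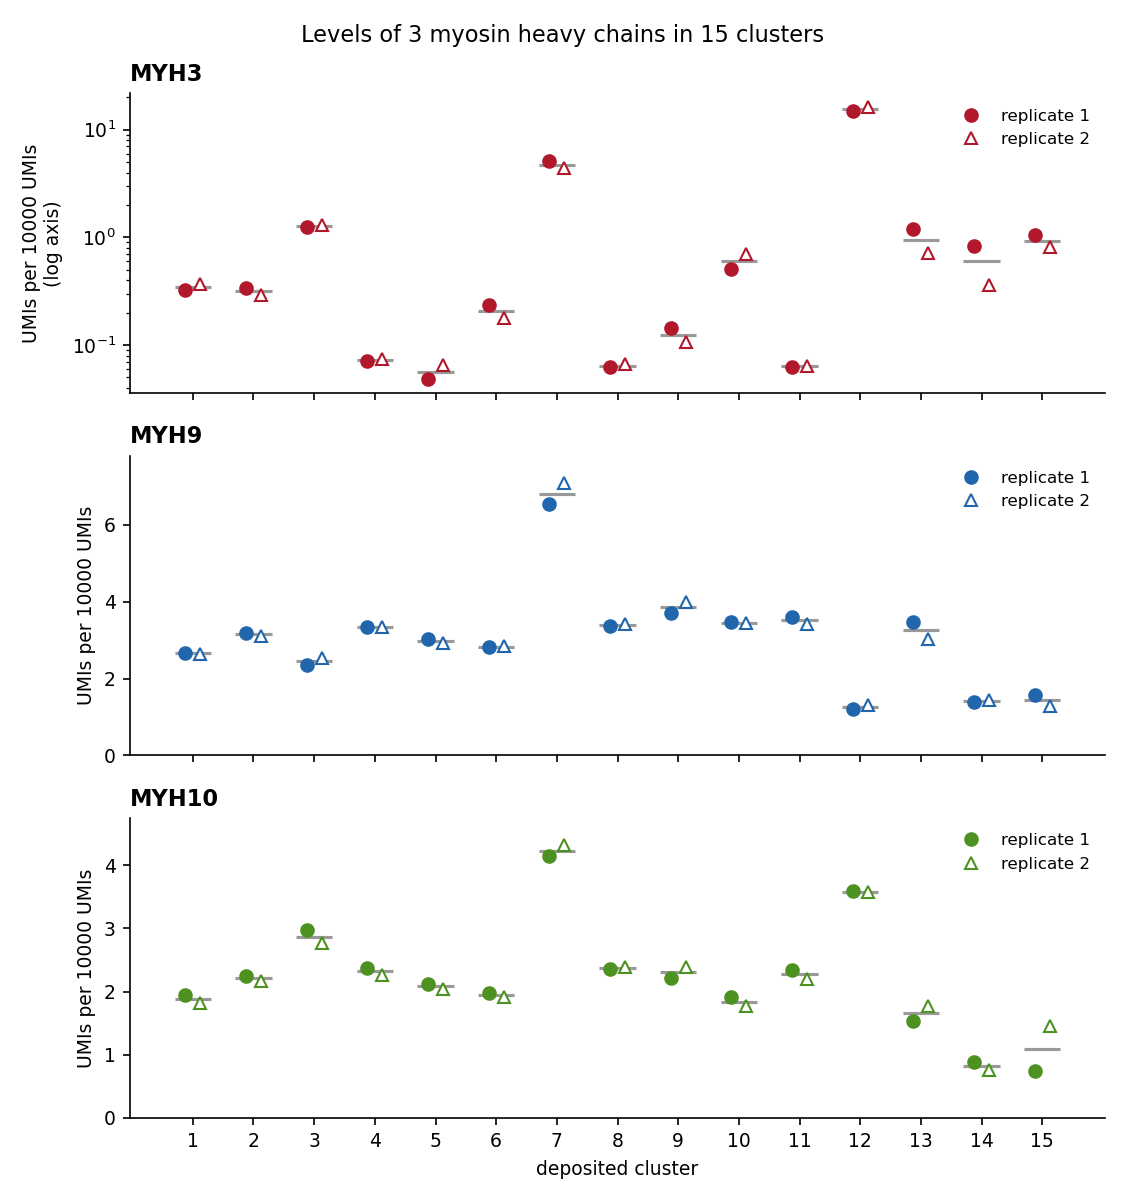
Level of MYH3 (log axis), MYH9 and MYH10 in UMIs per 10000 UMIs in each of the 15 clusters, with a point per library and a grey line at their mean. MYH3 stands highest in cluster 12 at 14.8 and 16.2, MYH9 is lowest there at 1.2 and 1.31, and both non-muscle chains are highest in cluster 7 on this scale, which has no TMM scaling.

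MYH3 UMIs were also gathered in few cells. The 100 cells with the most MYH3 UMIs held 35.5% of them, while the same number of cells held 3.58% of the MYH9 UMIs and 4.08% of the MYH10 UMIs. At least 10 MYH3 UMIs were counted in 617 cells. Cluster 12 held 408 of them, cluster 3 held 123 and cluster 7 held 20, and the highest cell, of cluster 12, had 276. Of these 617 cells, 588 also had a MYOG UMI. In cluster 12, 615 of 627 cells had a MYH3 UMI (98.1%), with a median of 16 UMIs per cell and a 90th percentile of 78.

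To compare shares of cells at equal depth, each cell was thinned at random to 5000 UMIs, which left out 3100 shallower cells. After thinning, 529 of 613 cells of cluster 12 had a MYH3 UMI (86.3%, exact binomial 95% interval 83.3% to 88.9%), and 517 of 2031 cells of cluster 3 (25.5%, 23.6% to 27.4%). The share was 10.2% in cluster 1 and 9.06% in cluster 2. In cluster 9, fibro-adipogenic by the study's names and not a cell type known for sarcomeric chains, it was 2.31% (1.504% to 3.398%), and clusters 5, 8 and 11 were at 2.14%, 2.11% and 2.84%. These low values cannot be told from free RNA carried into droplets. The shares in clusters 1, 2, 3, 6, 10, 12 and 14 lay above the interval of cluster 9, but the part of free RNA in them was not tested. Cluster 9 is no measure of free RNA alone, since 6 of its cells had 10 or more MYH3 UMIs, all 6 with MYOG. Before thinning its cells were also the deepest, at a median of 23011 UMIs, against 7790 and 5802 in the cells kept of clusters 10 and 14. Without thinning, clusters 12, 3, 1 and 9 had shares of 98.1%, 44.9%, 18.97% and 11.9%, at median depths of 19113, 16482, 12929 and 23011 UMIs. Such intervals cover counting error only.

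**Figure D2:**
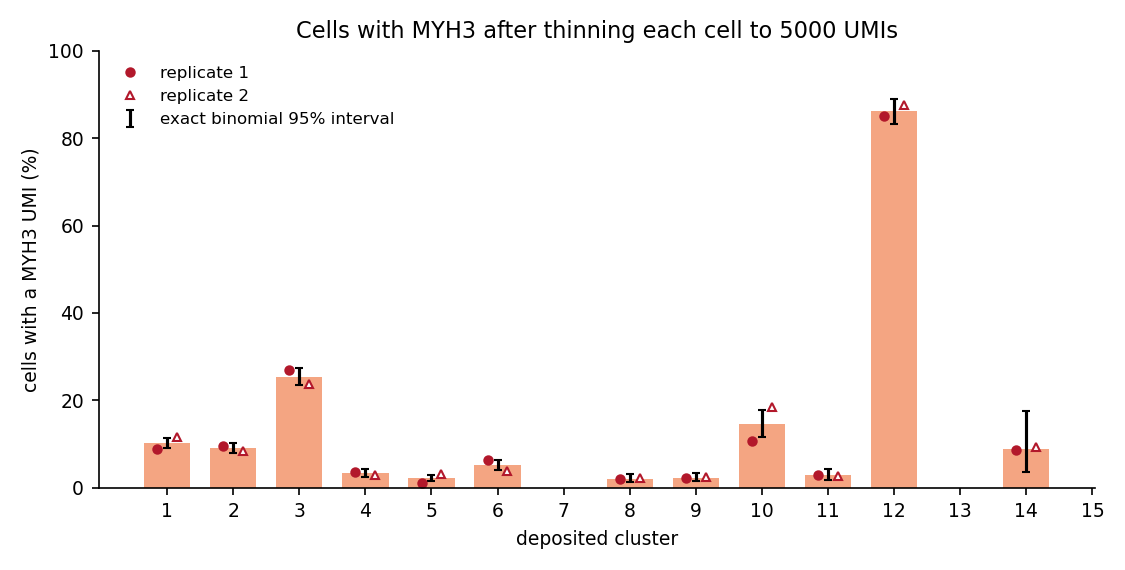
Percent of cells with at least 1 MYH3 UMI after thinning to 5000 UMIs, by cluster (bars), with exact binomial 95% intervals and a point per library. Clusters 7, 13 and 15 are not drawn because 12 of their cells or fewer reach this depth, and the bar of cluster 12 stands at 86.3% against 25.5% for cluster 3.

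The 2 non-muscle chains covered a narrower range and did not share one order. MYH9 (myosin IIA) was highest in cluster 7, at 6.54 and 7.08 UMIs per 10000 UMIs, followed by cluster 9 at 3.70 and 3.99. The next 9 clusters lay between 2.64 and 3.59, cluster 3 was below them at 2.36 and 2.53, and clusters 15, 14 and 12 were lowest, with cluster 12 at 1.2 and 1.31. MYH10 (myosin IIB) was also highest in cluster 7, at 4.15 and 4.31, but cluster 12 followed at 3.59 and 3.58, and then cluster 3 at 2.97 and 2.77. The remaining clusters had MYH10 at 2.39 or less, where clusters 8, 4, 9, 11 and 2 overlapped in a chain, and clusters 15 and 14 were lowest, at 0.734 and 1.45 and at 0.888 and 0.764, and overlapped. Cluster 12, which overlapped with cluster 15 at the low end for MYH9, was thus near the high end for MYH10, while cluster 15 was at the low end for both. The top place of cluster 7 for MYH10 depends on the scaling. In edgeR's test described below, with TMM scaling, MYH10 against all other cells was at 0.24 on the log2 scale in cluster 7 (not called). It was at 0.85 in cluster 12 and 0.50 in cluster 3.

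This difference shows in the share of MYH10 among the UMIs of both non-muscle chains. In cluster 12 the share was 74.9% in replicate 1 and 73.2% in replicate 2, and in cluster 3 it was 55.7% and 52.3%. Clusters 1, 2 and 4 to 11 lay lower and close together, from 34.0% to 42.3% over both libraries. Clusters 13 and 14 lay in or near this range at 30.7% to 38.9%, and cluster 15, with 56 UMIs of both chains in all, had 31.8% and 52.9%, which is too few to place it. Each UMI is a molecule counted at its 3′ end, so transcript length does not enter, but the capture of the 2 transcripts was not calibrated, so the shares are compared between clusters only.

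**Figure D3:**
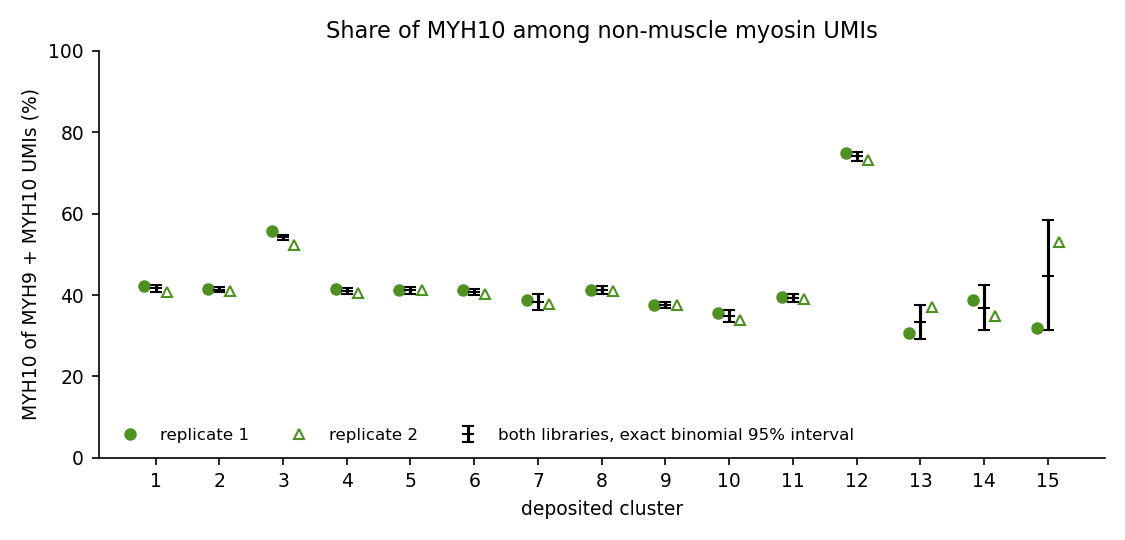
Percent of MYH10 among MYH9 and MYH10 UMIs in each cluster, with a point per library and the exact binomial 95% interval of both libraries together. Clusters 12 and 3 stand above clusters 1, 2 and 4 to 11, at 74.1% and 54.1% for both libraries together, and cluster 15 has the widest interval, from 31.3% to 58.5%.

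The UMI sums of a cluster in both libraries were set against those of all remaining cells by edgeR's quasi-likelihood test, with a call at an adjusted p under 0.05 over all genes tested. MYH3 was called higher in 3 clusters (3, 7 and 12), lower in 9 and not called in 3 (13, 14 and 15). MYH9 was called higher in 5, lower in 5 and not called in 5, and MYH10 was called higher in clusters 3 and 12, lower in 5 and not called in 8. The share of all tested genes that was called, in either direction, was 33.4%, 31.8%, 49.9%, 31.6% and 24.1% in clusters 1 to 5, 20.1%, 44.7%, 46%, 53% and 38.6% in clusters 6 to 10, and 26.5%, 54.3%, 17.3%, 7.79% and 0.273% in clusters 11 to 15. The call of MYH9 as lower in cluster 15 (−1.32 ± 0.14, adjusted p = 0.0478) was lost without TMM and with median-of-ratios factors (adjusted p = 0.178 and 0.119), where 0 genes were called in that cluster, against 1155 and 1111 at an unadjusted p under 0.05 and 140 higher and 122 lower with DESeq2. With the library as a block 6 more results were called, MYH9 in clusters 2 and 6, MYH10 in clusters 5, 8 and 15 and MYH3 in cluster 14, with adjusted p from 5.76e-05 to 0.036.

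Cluster 12 set the muscle chains and the 2 non-muscle chains furthest apart. Against all other cells, MYH3 was higher by 5.55 ± 0.07 on the log2 scale (SE, adjusted p = 5.76e-07), with 5.47 in replicate 1 and 5.63 in replicate 2. MYH10 was higher by 0.85 ± 0.05 (adjusted p = 3.62e-05), with 0.83 and 0.88 in the libraries. MYH9 fell by 1.12 ± 0.06 on this scale (adjusted p = 1.55e-05), by 1.18 and 1.06 in the libraries. Of the 7 members, 6 passed the filter on low counts, and 5 were called higher and 1 lower, where 24.8% of 13224 genes were called higher and 29.5% lower. Cluster 12 held 87.8% of the MYH2 UMIs, 68.9% of the MYH8 UMIs and 47.3% of the MYH7 UMIs, so that passing the filter and being higher there are not separate facts for these 3 chains. Without TMM scaling 2452 genes were called higher and 5209 lower in place of 3273 and 3906, the median of all genes in this comparison moved from −0.09 to −0.27, and MYH3, MYH10 and MYH9 kept their direction and call.

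The cells of cluster 12 held most UMIs of MYH2 and MYH8 but not of MYH7. Nearly all cells of cluster 12 with one of these chains also had MYH3, as did 615 of all 627 cells of the cluster (98.1%). MYH8, the perinatal chain, had 58 UMIs in 9 cells of cluster 12 in replicate 1 and 53 UMIs in 8 cells in replicate 2, and all 17 cells had MYH3 with a median of 74 MYH3 UMIs. Outside the cluster MYH8 had 50 UMIs in 46 cells, and 43 of these cells had 1 UMI. MYH2, the IIa chain, had 71 UMIs in 18 cells of cluster 12 in replicate 1 and 30 UMIs in 16 cells in replicate 2, and 33 of the 34 cells had MYH3. Elsewhere there were 3 MYH2 UMIs in replicate 1 and 11 in replicate 2. MYH7, the slow chain, had 17 UMIs in 9 cells and 18 UMIs in 7 cells of cluster 12, all 16 with MYH3, and 39 UMIs in 38 cells outside it. The number of such cells was alike in the libraries, while the MYH2 UMIs were not, and 18 of those in replicate 1 came from a single cell. For MYH8 in cluster 12, a single cell held 28 of the 58 UMIs in replicate 1, and a single cell held 27 of the 53 in replicate 2.

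In edgeR's test the log2 fold changes in cluster 12 against all other cells were 5.77 ± 0.27 for MYH8 (adjusted p = 1.32e-05), 4.45 ± 0.36 for MYH7 (adjusted p = 0.000122) and 7.44 ± 0.66 for MYH2 (adjusted p = 0.00018). The MYH2 value was 9.24 from replicate 1 and 6.03 from replicate 2, so its size is not fixed by these libraries. The MYH8 sums of cluster 12 were close in the libraries, but 28 of 58 and 27 of 53 UMIs came from 1 cell each. MYH2 and MYH8 were found together in 7 cells, all of cluster 12, MYH2 and MYH7 in 2 cells of cluster 12, and MYH7 and MYH8 in 1 cell outside it. MYH1, the IIx chain, had 1 UMI in each of clusters 1, 10, 11 and 12, which allows no comparison.

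The study set its 2 MYOG clusters side by side, and the myosin heavy chains differed between them in the same directions as against all cells. MYH3 was higher in cluster 12 than in cluster 3 by 3.71 ± 0.06 on the log2 scale (adjusted p = 7.60e-08), with 3.68 and 3.73 in the libraries. MYH10 was higher by 0.42 ± 0.06 (adjusted p = 0.000935), and MYH9 fell by 0.86 ± 0.06 (adjusted p = 3.32e-05), a change of the same size in both libraries. MYH8 was higher by 5.52 ± 0.38 and MYH7 by 4.61 ± 0.53, both called, from 7 and 4 UMIs in cluster 3. Both passed the filter on low counts through cluster 12, so passing it and being higher are not separate facts for these chains. Their libraries lay apart, at 6.59 and 4.88 for MYH8 and at 5.82 and 4.06 for MYH7, so the sizes of these differences are uncertain. MYH2 had 0 and 3 UMIs in cluster 3, and no fold is given for it. In this comparison 33.8% of 10811 genes were called, 18.2% higher and 15.6% lower, and without TMM 1552 were called higher and 2527 lower in place of 1963 and 1687.

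Cluster 3 differed from the myoblasts of cluster 1 in MYH3 and MYH10 but not by the test in MYH9. MYH3 was higher by 1.90 ± 0.07 on the log2 scale (adjusted p = 7.99e-06) and MYH10 by 0.64 ± 0.06 (adjusted p = 0.000267). MYH9 was at −0.08 ± 0.04 (adjusted p = 0.187), with −0.12 and −0.04 in the libraries, and with the library as a block the adjusted p was 0.00661. In this comparison 40.2% of 11362 genes were called. Against all other cells MYH3 in cluster 3 was higher by 0.47 ± 0.06, but the cells of cluster 12 are among those others. With the other 14 clusters given equal weight, and without TMM, the value was −0.47.

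**Figure D4:**
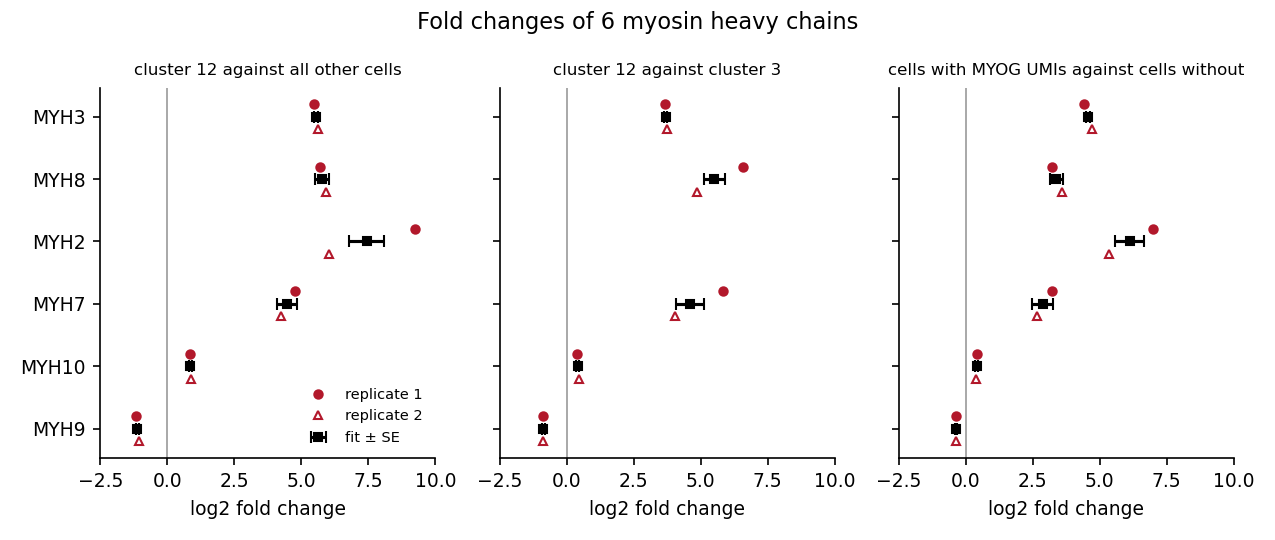
Log2 fold changes of 6 heavy chains in 3 comparisons, with the fit ± SE (squares) and each library's value. The muscle chains MYH3, MYH8, MYH2 and MYH7 lie to the right of 0, MYH10 slightly to the right and MYH9 to the left in all 3 panels. MYH2 is not drawn for cluster 12 against cluster 3, where it had 0 and 3 UMIs in cluster 3, and its libraries lie apart at 9.24 and 6.03 in the left panel.

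A split that used neither clusters nor myosins gave the same directions. The cells with at least 5000 UMIs were thinned to 5000 and divided by whether a MYOG UMI was left, and the full UMIs of both classes were then compared in edgeR. This split is not independent of the clusters, since the study named clusters 3 and 12 by MYOG. Of the 613 thinned cells of cluster 12, 606 had a MYOG UMI left, so the same directions are not separate evidence. MYH3 was higher in cells with MYOG by 4.56 ± 0.09 on the log2 scale (adjusted p = 1.48e-05), MYH2 by 6.12 ± 0.54 (6.99 and 5.36 in the libraries), MYH8 by 3.37 ± 0.24 and MYH7 by 2.87 ± 0.39 (3.21 and 2.66). MYH10 was higher by 0.40 ± 0.05 (adjusted p = 0.00199), with 0.43 and 0.37 in the libraries. MYH9 fell by 0.35 ± 0.03 (adjusted p = 0.000835), by 0.35 and 0.36 in the libraries. Over all genes 44.3% of 13097 were called, 21.2% higher and 23.1% lower. All 6 members that passed the filter were called, but MYH2 had 5 UMIs and MYH7 had 22 in all cells without MYOG. Both passed through the cells with MYOG, so for these chains passing the filter and being higher are not separate facts. Without TMM the calls over all genes were 2110 higher and 4045 lower in place of 2775 and 3030.

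The levels of MYH3, MYH9 and MYH10 also followed the number of MYOG UMIs in steps. The thinned cells were 12411 with no MYOG UMI, 1755 with 1 or 2, 1321 with 3 to 9 and 509 with 10 or more. Over these 4 classes the mean MYH3 level of the libraries was 0.169, 0.963, 4.89 and 10.3 UMIs per 10000 UMIs, and the share of thinned cells with MYH3 was 5.36%, 14.9%, 42.9% and 66.8%. MYH9 went from 3.19 through 2.78 and 2.11 to 1.503, while MYH10 went from 2.18 through 2.39 and 2.90 to 3.28. The 2 libraries did not overlap between neighbouring classes for any of these 3 genes. Of the cells with no MYOG, 0.0564% belonged to cluster 12, and of those with 10 or more, 54.6% belonged to cluster 12 and 41.1% to cluster 3.

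**Figure D5:**
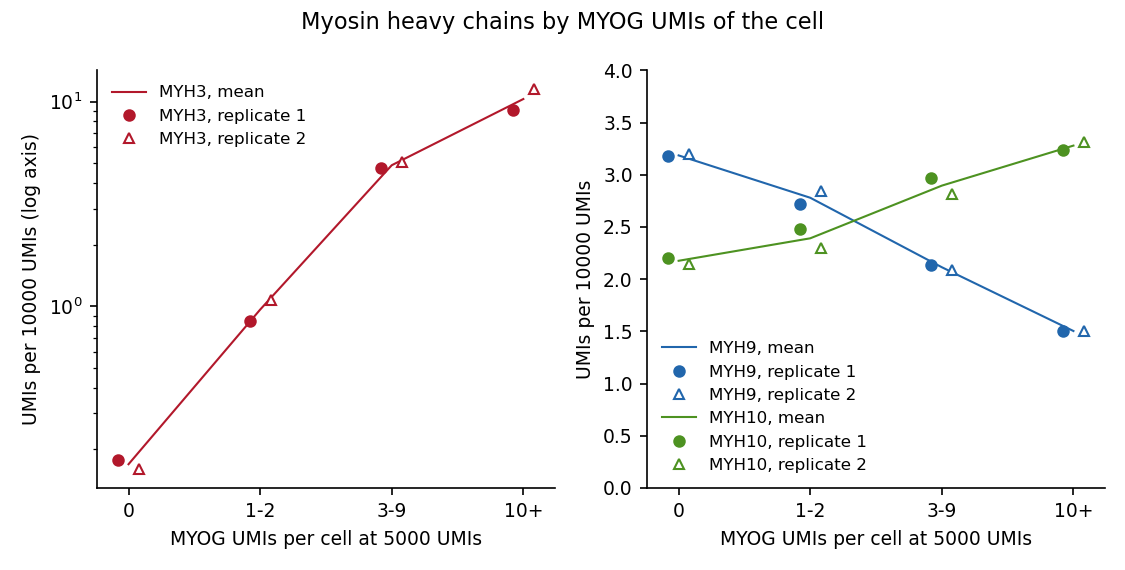
Level of MYH3 (left, log axis) and of MYH9 and MYH10 (right) in UMIs per 10000 UMIs over 4 classes of cells by their MYOG UMIs at 5000 UMIs per cell, with a point per library and a line through the means. MYH3 goes from 0.169 up to 10.3, MYH10 from 2.18 up to 3.28 and MYH9 from 3.19 down to 1.503, so that the lines of the non-muscle chains cross.

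Among the rare chains, MYH2 was left in 12 of 509 thinned cells with 10 or more MYOG UMIs (2.36%) and in 1 of 12411 cells with none (0.00806%). MYH7 and MYH8 were each left in 4 of 509 such cells (0.786%) and in 8 of 12411 cells with none (0.0645%). Each of these chains was therefore absent from most MYOG-rich cells at this depth, whereas MYH3 was seen in 340 of the 509.

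Within the 2 MYOG clusters, MYH10 rose in steps with the MYH3 count of the thinned cell over all classes in cluster 3. In cluster 12 it did so only over the classes with MYH3. In cluster 3 its mean level was 2.66 UMIs per 10000 UMIs in 1514 cells without MYH3, 3.31 in 458 cells with 1 to 4 MYH3 UMIs and 4.47 in 59 cells with 5 to 19. MYH9 in the same cells was at 2.51, 2.23 and 2.42. In cluster 12, MYH10 was at 3.56 in 84 cells without MYH3, 3.32 with 1 to 4, 3.63 with 5 to 19 and 4.64 in 58 cells with 20 or more. There the libraries of the first class lay apart at 2.84 and 4.28, and those of the last, at 5.21 and 4.07, overlapped with them. MYH9 in cluster 12 stayed between 1.205 and 1.331. In cluster 3 the libraries did not overlap between neighbouring MYH3 classes for MYH10, and the mean MYOG level in its MYH3 classes was 5.68, 9.16 and 11.5, with overlapping libraries in the last pair. In cluster 12 the mean MYOG level over the MYH3 classes was 19.3, 19.2, 18.2 and 17.5.

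Cluster 7 is named fibro-adipogenic by the study and had the second highest MYH3 level. Its cells were shallow, with a median of 1389 UMIs, and 147 of the 1298 cells had a MYH3 UMI. Thinning to 1000 UMIs kept 1008 of these cells, and 9.52% of those had a MYH3 UMI (7.78% to 11.5%). At that depth the share was 9.24% in cluster 3, 7.45% in cluster 13 and 58.7% in cluster 12. Without thinning, the 20 cells of cluster 7 with 10 or more MYH3 UMIs held 67.1% of its MYH3 UMIs. PDGFRA, the marker behind the fibro-adipogenic name, was found in 6.12% of the cells with MYH3 and in 16.6% of those without, although the former were deeper, with medians of 1922 and 1353 UMIs. The part of depth or of droplets with more than 1 cell in these values was not tested. MYH3 was higher in cluster 7 than in all other cells by 1.58 ± 0.10 on the log2 scale and MYH9 by 0.54 ± 0.09 (adjusted p = 0.00482), where 44.7% of 13036 genes were called. MYH10 was at 0.24 ± 0.09 and did not pass (adjusted p = 0.0825). These values follow the scaling, since without TMM the median of all genes moved from −0.12 to 0.52, the calls moved from 2382 higher and 3443 lower to 4768 and 1625, and MYH10 was at 0.89 (adjusted p = 0.000696).

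The other fibro-adipogenic cluster, cluster 9, had deep cells and a different balance. Against the myoblasts of cluster 1, MYH9 was higher by 0.42 ± 0.06 on the log2 scale (adjusted p = 0.000259), MYH10 by 0.17 ± 0.06 (adjusted p = 0.0492) and MYH3 fell by 1.59 ± 0.13 (adjusted p = 1.65e-05). In this comparison 63.2% of 11549 genes were called, more than in any other pair of clusters compared. MYH10 was just under the threshold, with 0.05 in replicate 1 and 0.29 in replicate 2.

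Between the 2 myoblast clusters the non-muscle chains differed little. Cluster 2 had more MYH9 than cluster 1 by 0.20 ± 0.04 on the log2 scale (adjusted p = 0.00641) and more MYH10 by 0.18 ± 0.05 (adjusted p = 0.0267), and MYH3 was at −0.19 ± 0.10 (adjusted p = 0.168, and 0.00238 with the library as a block), with 0.02 in replicate 1 and −0.41 in replicate 2. Here 41.9% of 11494 genes were called. Of the named regulators, CIT, a kinase of the cleavage furrow, was higher in cluster 2 by 2.33 and ANLN, which links the contractile ring to the membrane, by 1.99, while MYLK, the myosin light chain kinase, fell by 1.59. Of the 14 regulators analysed, 6 were called higher and 4 lower, with a median of 0.10, where the median of all genes was 0.01. The MYH10 difference was lost with DESeq2 and with the cells of most UMIs left out (adjusted p = 0.0738 and 0.153), and the second of these settings gave MYH3 a call at −0.40 (adjusted p = 0.0315).

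Cluster 15 held 317 cells with a median of 647 UMIs. MYH3 had 20 UMIs there, 1 in each of 20 cells, and against cluster 12 it fell by 4.49 ± 0.19 on the log2 scale (adjusted p = 1.60e-11). MYH10 fell by 2.06 ± 0.22 (adjusted p = 2.72e-06), from libraries at −2.73 and −1.67, and MYH9 was at −0.23 ± 0.22 (adjusted p = 0.608), where 16.3% of 8915 genes were called. The whole cluster had 31 UMIs of MYH9 and 25 of MYH10, and without TMM MYH9 was at 0.17 (adjusted p = 0.733).

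MYH3 was also set against MYLPF, the fast regulatory light chain and a partner of the muscle heavy chains. There were 22.7 MYH3 UMIs per 100 MYLPF UMIs in cluster 12 (mean of both libraries), 21.8 in cluster 1, 22.2 in cluster 9 and 9.58 in cluster 3. Clusters 7 and 13 were highest, at 44.4 and 42.4, and clusters 14 and 15 lowest, at 5.41 and 4.67. These are the shallow clusters, and 13, 14 and 15 had only 98, 80 and 20 MYH3 UMIs. The libraries were at 47.2 and 37.5 in cluster 13 and at 6.77 and 4.06 in cluster 14. In cluster 7, 10 cells held 51.1% of the MYH3 UMIs. The ratio of the 2 transcripts was thus not the same in all clusters, and cluster 3, with the largest number of MYH3 cells (914), was next to clusters 14 and 15 at 8.97 and 10.2 in the libraries, overlapping with cluster 2 at 11.6 and 9.32.

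Lists of related genes were followed in cluster 12 against all other cells, where the median log2 fold change of all genes tested was −0.09. Of the other 7 class II heavy chains, 3 passed the filter. MYH11, the smooth muscle chain, was higher by 1.44 (adjusted p = 0.00758) from 192 UMIs in all, and MYH15 fell by 1.71 (adjusted p = 0.00377) from 1316 UMIs. MYH6, the alpha chain of the heart, was at −0.18 (adjusted p = 0.757), and its 348 UMIs lay in 343 cells with no concentration in cluster 12, which held 12 of them. MYH14, non-muscle myosin IIC, had 34 UMIs and none in cluster 12. MYH4, MYH7B and MYH13 had 6, 2 and 0 UMIs in all cells.

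Sarcomeric light chains and partners of the thick filament were higher in cluster 12 as well, where 24.8% of 13224 genes were called higher and 29.5% lower. Of the 6 sarcomeric light chains 5 passed the filter, and all 5 were called higher, among them MYL2 (6.38), MYL3 (6.31) and MYL4 (5.73, the embryonic and atrial essential light chain), with a median of 5.73. MYL2 was at 7.41 in replicate 1 and 5.09 in replicate 2, so that its place ahead of MYL4 (5.67 and 5.79) held in replicate 1 only, and MYL3 had 60 UMIs in all. Cluster 12 held 77.1% of the MYL2 UMIs and 76.7% of the MYL3 UMIs, so the count of 5 is partly set by the filter. Among the thick filament and M-band genes, MYOM2 (6.03) and MYOM1 (5.40), which encode proteins that crosslink thick filaments at the M-band, were called higher. TTN was not analysed here. Of the 8 genes of myosin folding and turnover, 6 were called higher and 1 lower. TRIM54 (6.49) and TRIM55 (4.64) encode sarcomere-associated ring finger proteins, and UNC45B (5.22) is the muscle chaperone that folds the myosin head, while its general counterpart UNC45A fell by 0.35.

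The genes around the non-muscle myosins were divided. Of the 5 light chains listed as non-muscle and smooth muscle, 3 were called higher and 0 lower: MYL6B by 3.56, MYL9 by 1.56 and MYL12A by 0.71. MYL6B is not limited to non-muscle cells, so its value is not one of non-muscle myosin alone. MYL6 and MYL12B were at 0.11 and −0.06 and were not called (adjusted p = 0.0851 and 0.48). Of the 14 regulators of non-muscle myosin II analysed, 9 were called lower and 2 higher, with a median of −0.40, where 29.5% of all genes tested were called lower and 24.8% higher. CIT fell by 2.74, ANLN by 2.29 and MYLK by 1.75. In the split by MYOG, 21.2% of all genes were called higher and 23.1% lower. Of the 6 sarcomeric light chains, 5 passed the filter and all 5 were called higher. Cluster 12 held 76.7% of the 60 MYL3 UMIs, so this count too is partly set by the filter. From the non-muscle and smooth muscle list 3 light chains were called higher, as were 6 of 8 folding genes. Among the regulators 7 were called lower and 1 higher.

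Genes whose levels over the 15 clusters were most like those of a member were found by Pearson's correlation of log2(UMIs per 10000 + 0.01), over 9067 genes, as a description in which all points share the same 2 libraries. For MYH3 they were MYMK (0.98), the membrane protein of myoblast fusion, ARPP21 (0.98) and STAC3 (0.98), a component of excitation-contraction coupling. For MYH9 they were RRBP1 (0.96), a ribosome-binding protein of the endoplasmic reticulum, LPGAT1 (0.96) and CEP164 (0.96). For MYH10 they were MYOF (0.95), a membrane protein with a role in myoblast fusion, TRIP12 (0.93), a ubiquitin ligase, and the gene ENSBTAG00000017734 (0.90), which has no symbol in the feature list. Between the members the same correlation was 0.26 for MYH3 and MYH10, −0.31 for MYH3 and MYH9 and 0.51 for MYH9 and MYH10. With ranks in place of values, 3 of the 3 genes named for MYH3 were still among its 10 nearest, against 1 of 3 for MYH10 (MYOF) and 0 of 3 for MYH9.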

How the data were processed

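The authors aligned the reads of both 10x 3′ libraries to ARS-UCD1.2 with Ensembl genes, counted uniquely mapped reads as UMIs and called cells with Cell Ranger 3.0.2, and combined the libraries by mapped depth. They deposited these counts as whole UMIs per gene and cell. They sum to 145631299 and 137818568 UMIs. The authors also deposited an average score per gene and cluster, a scaled mean UMI count. Their log2 fold changes and p-values of each cluster were not used. No removal of doublets is described, and none was done here.

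The library of a cell was read from the number that ends its barcode. Each cell's cluster followed from the deposited averages, which convert to whole UMI sums, for 19096 of 19096 cells, with 0 of 252240 pairs of gene and cluster differing. UMIs were summed per library and cluster, and 2 sums were compared with 2 in edgeR 4.0.16 (R 4.3.3) by the quasi-likelihood test after TMM and filterByExpr, with Benjamini-Hochberg adjustment over all genes tested. Each SE is the absolute log2 fold change divided by the square root of the test's F statistic, not a separately fitted error. The script was tested on simulated data. The paired sums come from the same libraries. Over 21 comparisons, the log2 library ratios on both sides correlated across genes at 0.167 to 0.707 (median 0.518), so the library number pairs the sums. The main test left this pairing out, and only the alternative with the library as a block used it. Cells were thinned with a fixed seed to 5000 UMIs, or to 1000 UMIs where stated, and intervals are exact binomial at 95%.

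The members and gene lists were chosen with earlier results of these data known, and no list is independent evidence. The genes named are the 7 members, other class II heavy chains with at least 20 UMIs, up to 3 genes per list with the largest called change in cluster 12 against all other cells, the 3 genes most like each member with at least 500 UMIs, and MYOG. MYH4, MYH7B, MYH13, MYL6, MYL12B, UNC45A and the cell type markers were named beside these after their values were seen. Alternatives were DESeq2 1.42.0, no filter on low counts, library totals without TMM, median-of-ratios factors, the library as a block, each library alone, cells under 2000 UMIs or the 8% of cells with the most UMIs left out, equal weight for clusters, a stricter MYOG cut, another pseudocount and rank correlation. Promoter and protein sequences were not analysed here. A gene of the thick filament list, the counts over that list and some of the Schwann cell markers are not reported here.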

Additional observations from a re-analysis of the deposited data

How the results depend on the processing

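Over 72 results for members, 694 alternative values were computed, of which 626 kept their direction and their side of the threshold or moved by less than the spread between libraries. Leaving out cells under 2000 UMIs changed nothing for pairs among clusters 1, 2, 3, 9 and 12 or for the MYOG split, which hold no such cells. Of the 626, 71 were without replicate 1 and 71 without replicate 2. The fit lies between the libraries, so these values stayed within this spread nearly by construction. With the other clusters weighted equally, however, 33 values against all other cells moved, 1 turned and 14 stayed within that spread. Equal weighting was computed from library totals without TMM, so the parts of weighting and of scaling in these moves were not separated. Where a call or direction did change, the cause was not tested unless the alternative's own construction shows it. Under this weighting the values in cluster 12 were 4.39 for MYH3, −1.34 for MYH9 and 0.75 for MYH10, and MYH3 in cluster 3 turned to −0.47. With the library as a block, calls were gained for MYH9 in cluster 3 against 1 (−0.0829, adjusted p = 0.00661) and for MYH3 in cluster 2 against 1 (−0.19, adjusted p = 0.00238), and the block changed no other call in the pairs of clusters or in the MYOG split. With the cells of most UMIs left out, the values in cluster 2 against 1 were −0.40 for MYH3 (adjusted p = 0.0315) and 0.11 for MYH10 (adjusted p = 0.153). Against all other cells, calls of MYH9 were lost in cluster 1 with median-of-ratios factors and with the cells of most UMIs left out (−0.12 and −0.10), in cluster 11 without a filter (0.15) and in cluster 15 without TMM and with median-of-ratios factors (−1.09 and −1.23). In cluster 2 against 1 the MYH10 call was also lost with DESeq2 (0.16, adjusted p = 0.0738) and with median-of-ratios factors (0.16, adjusted p = 0.0577). MYH9 in cluster 15 against 12 turned to 0.17 without TMM (adjusted p = 0.733). Uncalled values near 0 against all other cells also turned: MYH10 in cluster 4 to −0.000597 with DESeq2, −0.00265 without a filter and −0.000607 with median-of-ratios factors, MYH9 in cluster 5 to −0.00516 without a filter and −0.0193 without TMM, MYH10 in cluster 9 to 0.0103 with the cells of most UMIs left out, and MYH3 and MYH9 in cluster 13 to 0.34 and −0.19 without cells under 2000 UMIs. Between pairs of clusters, counts of called genes moved by over 1.5 times for lower genes with DESeq2 (845 from 1687 in cluster 12 against 3, 1254 from 2168 in cluster 3 against 1), and in cluster 15 against 12 to 221 higher genes without a filter and to 901 higher and 471 lower genes without TMM, from 469 and 981. Against all other cells they moved so without TMM in clusters 7 (4768 higher and 1625 lower from 2382 and 3443), 14 (310 and 795 from 480 and 524) and 15 (0 and 0 from 5 and 30), where median-of-ratios factors also gave 0. DESeq2 gave 1364 higher genes from 769 in cluster 13, 951 from 480 in cluster 14 and 140 higher and 122 lower in cluster 15. Without cells under 2000 UMIs there were 1289 higher genes in cluster 7 and 219 higher and 791 lower in cluster 13, from 1449 lower. The block raised higher calls to 3082 from 1912 in cluster 1, 3010 from 1976 in cluster 2, 2510 from 1670 in cluster 11 and 759 in cluster 14, and both counts in clusters 4 (3319 and 3228), 5 (2616 and 2543), 6 (2840 and 2451) and 15 (27 and 215). Each library alone gives a value without a test, and MYH9 in cluster 12 against 3 was then between −0.87 and −0.86. In shallow clusters the depth limits what can be seen, and 2 libraries of 1 culture limit all p-values to the spread of library preparation.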

Other observations

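A few class II heavy chains outside the 7 described above also differed between clusters. MYH15, a slow myosin known from extraocular muscle, was higher in the myoblast cluster 2 than in all other cells by 0.82 ± 0.11 on the log2 scale (adjusted p = 0.00479) and fell by 1.27 ± 0.16 in cluster 9 (adjusted p = 0.000943), with 295 and 55 UMIs in these clusters. MYH6, the alpha chain of the heart, was higher in cluster 9 than in cluster 1 by 1.34 ± 0.32 (adjusted p = 0.00593 in edgeR's quasi-likelihood test), from 54 and 25 UMIs, and was alike in both libraries at 1.36 and 1.35. In UMIs per 10000 UMIs (mean of both libraries, no TMM), MYH6 was at 0.0205 in cluster 9 and 0.0074 in cluster 1. It was also at 0.0220 in cluster 11 and 0.0188 in cluster 5, so a high value is not particular to cluster 9. On the same scale MYH15 was at 0.0746 in cluster 2 and at 0.105 in the shallow cluster 7, there from 23 UMIs. Both genes were chosen after their values were seen.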
